A study of Mus musculus with 8 samples.

Results

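Genes of DNA damage signalling and repair were examined in osteoblasts, the bone-forming cells, taken from mice 8 weeks after a course of doxorubicin. Members were chosen by gene symbol from a list of 34 damage kinases, break-marking proteins and repair enzymes, and all 34 were among the 21154 genes of the count table. Every mouse was a female carrying Col2.3-GFP, a green fluorescent reporter driven by a Col1a1 promoter fragment that is active in bone-forming cells. The mice, young adults of 8 to 10 weeks at treatment, received 4 weekly intravenous injections, either of phosphate-buffered saline (PBS, n = 3 libraries) or of doxorubicin at 5 mg/kg (DOX, n = 5). Marrow was spun out, the bone chips were digested, and cells bearing GFP were collected by sorting for SMART-Seq v4 Plus RNA-seq. The reporter is the only gate the labels name, so cells that carry little of it were not sampled, and whether a library pools animals is not stated there. Where nothing ties the libraries to separate animals beyond titles that call them biological replicates, p-values measure the spread between these libraries.

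The library titled DOX replicate 1 carries a treatment tag of PBS. It was counted as DOX by its title, and the calls and the members' fold changes were also computed without it and with it as PBS. The labels give each library a batch number. Of the 8 libraries, 3 (PBS replicate 1, DOX replicates 1 and 2) formed batch 1, and the remaining 5 formed batch 2. Totals ran from 39419027 to 44299591 counts. All 12 osteoblast markers were detected in every library, and their summed level ran from 235000 to 611000 CPM (counts scaled to a common library size) in PBS and from 264000 to 486000 CPM in DOX. The collagen share, the percent of counts in Col1a1 and Col1a2, was graded over the libraries. It was lowest in PBS replicate 1 and DOX replicate 1, at 19.1% and 23.2%, against 26.0% to 39.5% elsewhere. The same libraries led in the erythroid list, at 158 and 110 CPM, against at most 39.9 CPM elsewhere.

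Cells answer a broken DNA strand in steps. The MRN complex and the Ku dimer bind the ends, the kinases encoded by Atm, Atr and Prkdc phosphorylate many targets, among them the histone variant H2A.X, and adaptor proteins then gather on the marked chromatin. Breaks are rejoined directly by end joining, or copied from the sister chromatid by homologous recombination in dividing cells, while smaller lesions are cut out by base excision, nucleotide excision and mismatch repair. Doxorubicin traps topoisomerase II on DNA and leaves double-strand breaks.

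The 34 transcripts covered a wide range of levels. Levels between genes are given as CPM per kilobase of exon, CPM being scaled by trimmed mean of M-values (TMM) factors. Ddb1, the damage-recognition adaptor of the CUL4 ubiquitin ligase, was the most abundant at a mean of 49.1 CPM per kilobase over the 8 libraries. It was followed by H2ax at 11.4, Nbn at 8.66, Xrcc5 at 8.40 and Ercc1 at 6.70 CPM per kilobase. Fanca (0.0617), Ung (0.0920), Fancd2 (0.0950), Fanci (0.105) and Brca1 (0.148 CPM per kilobase) closed the order. In CPM, 15 members averaged at least 10 and 8 averaged under 2. The summed CPM of all members except Ddb1 ran from 353 to 370 in PBS and from 326 to 360 in DOX, so the totals of the groups overlapped. In bulk RNA of this kind, fewer cells that express a gene and less RNA of it per cell cannot be told apart.

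**Figure D1:**
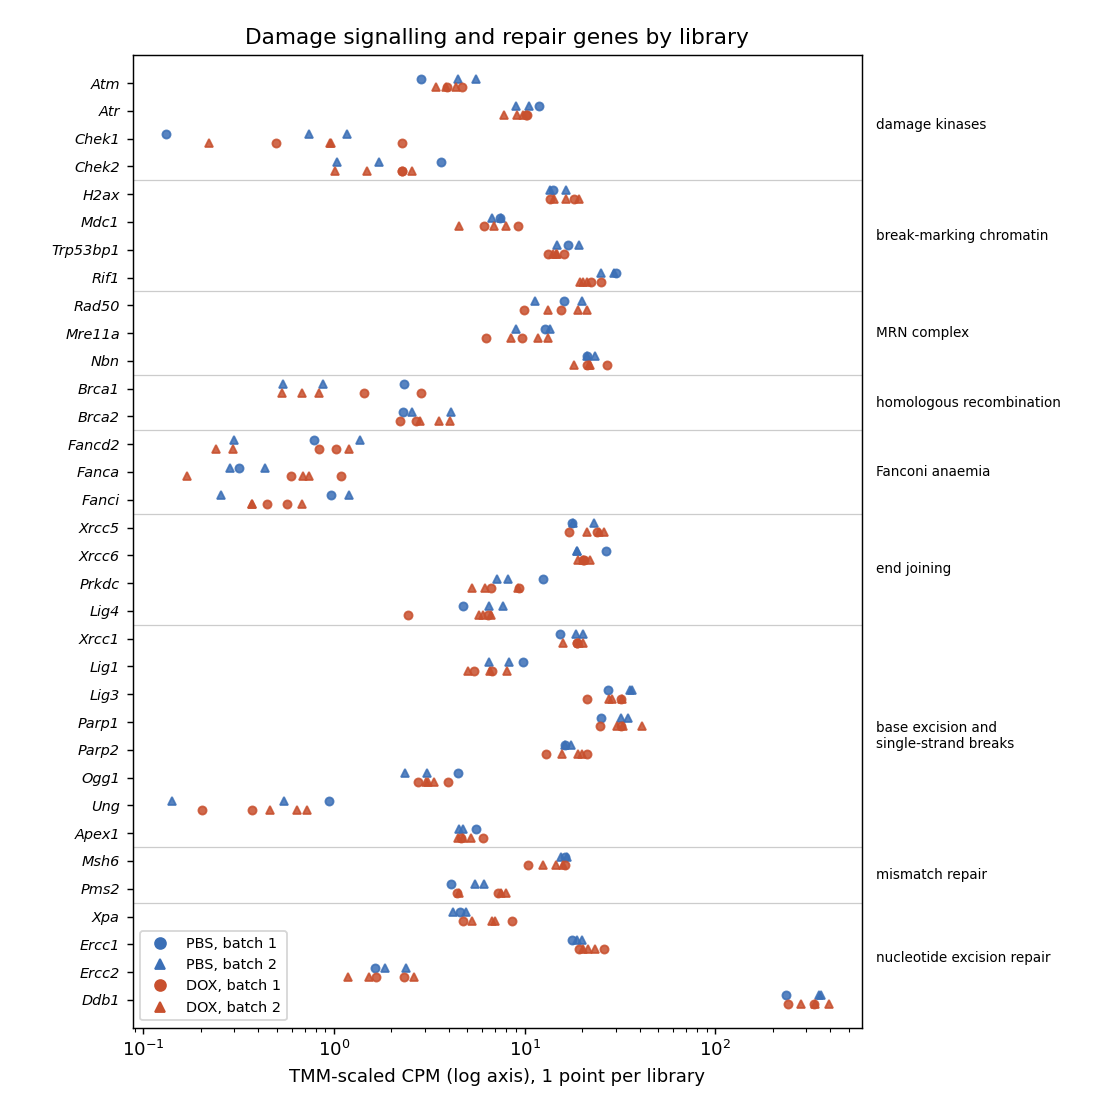
TMM-scaled CPM of each of the 34 genes on a log axis, with 1 point per library, coloured by group and shaped by batch, and genes ordered by pathway. The PBS and DOX points overlap for 33 of the 34 genes, Rif1 being the exception, and the spread is widest for the genes of lowest level.

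Part of the list is tied to the cell cycle by E2F factors, which switch on genes at the start of DNA replication. A motif of E2F type was searched in the window from 250 bases before to 50 bases after each gene start, as RefSeq gives it for build GRCm38.p6. The motif was TTTNNCGC with each N a G or a C, on both strands, and no other motif was searched. Of the 34 members 28 had a window, and 6 of these (21.4%) held the motif, against 2.26% of all 32851 windows and 2.60% of the 27025 gene symbols that have one. These backgrounds were not matched to the members for expression or for base content of the promoter, so the shares are a description and not a test. The members without a window were Rif1, H2ax, Prkdc, Nbn, Rad50 and Fancd2. Brca1, Chek1, Fanca and Ung were among those with a window that lacked the motif. The 6 stretches are shown because they mark the members that share this feature. They are read 5′ to 3′ in the direction of the gene, with the motif or its reverse complement in capitals. A match describes letters, not a bound site.
Chek2, chr5:110839821-110839848, plus strand: gggattagccGCGGGAAAccaagacgtc
Mdc1, chr17:35841472-35841499, plus strand: cttcagcctgTTTCCCGCcggtagccgc
Brca2, chr5:150522443-150522470, plus strand: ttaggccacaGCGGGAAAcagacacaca
Xrcc6, chr15:82016313-82016340, plus strand: gggggtggaaGCGGGAAAtgcgagtggg
Lig1, chr7:13278842-13278869, plus strand: gccaaagtgcGCGCGAAAtctgtgtggc
Msh6, chr17:87975055-87975082, plus strand: tcctcccgacTTTCCCGCcagcggcggc
The genes with this motif serve different pathways. Chek2 encodes a checkpoint kinase, Mdc1 an adaptor on phosphorylated H2A.X, Brca2 a mediator of homologous recombination, Xrcc6 the Ku partner of Xrcc5, Lig1 the replicative DNA ligase and Msh6 a mismatch-binding protein. Their log2 fold changes between DOX and PBS ran from -0.36 to 0.07, with 1 higher and 5 lower, and none passed the test described next.

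The main comparison asked whether the transcripts of the repair machinery differed between the groups 8 weeks after treatment. No member passed in edgeR's quasi-likelihood test with batch in the model: 0 of 34 had an adjusted p under 0.05, and 0% of the 15373 genes tested did. At an unadjusted p under 0.05 edgeR listed 1 of 34 members (2.94%), against 3.71% of all genes. Limma-voom and DESeq2 also called 0 members, each with 1 at an unadjusted p under 0.05, against 0% and 0.0976% of all genes called and 4.31% and 4.74% at the unadjusted level. By sign, 14 members were higher and 20 lower in DOX, and 53.0% of all genes were higher. The median log2 fold change of the members was -0.05, against 0.02 over all genes.

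The sizes of difference that these libraries can bound differed between members. The 95% interval of the log2 fold change, derived from the test statistic, lay within -1 to 1 for 27 of 34 members. That is within 2-fold in either direction. The other 7 were Chek1, Brca1, Fancd2, Fanca, Fanci, Ung and Xpa. For the first 6 the smallest library held between 5 and 19 counts. The intervals of Brca1 (-1.02 to 0.87) and Fanci (-2.10 to 0.64) reached past 2-fold on the lower side alone. Xpa had at least 155 counts in each library, and its interval ran from -0.03 to 1.03.

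**Figure D2:**
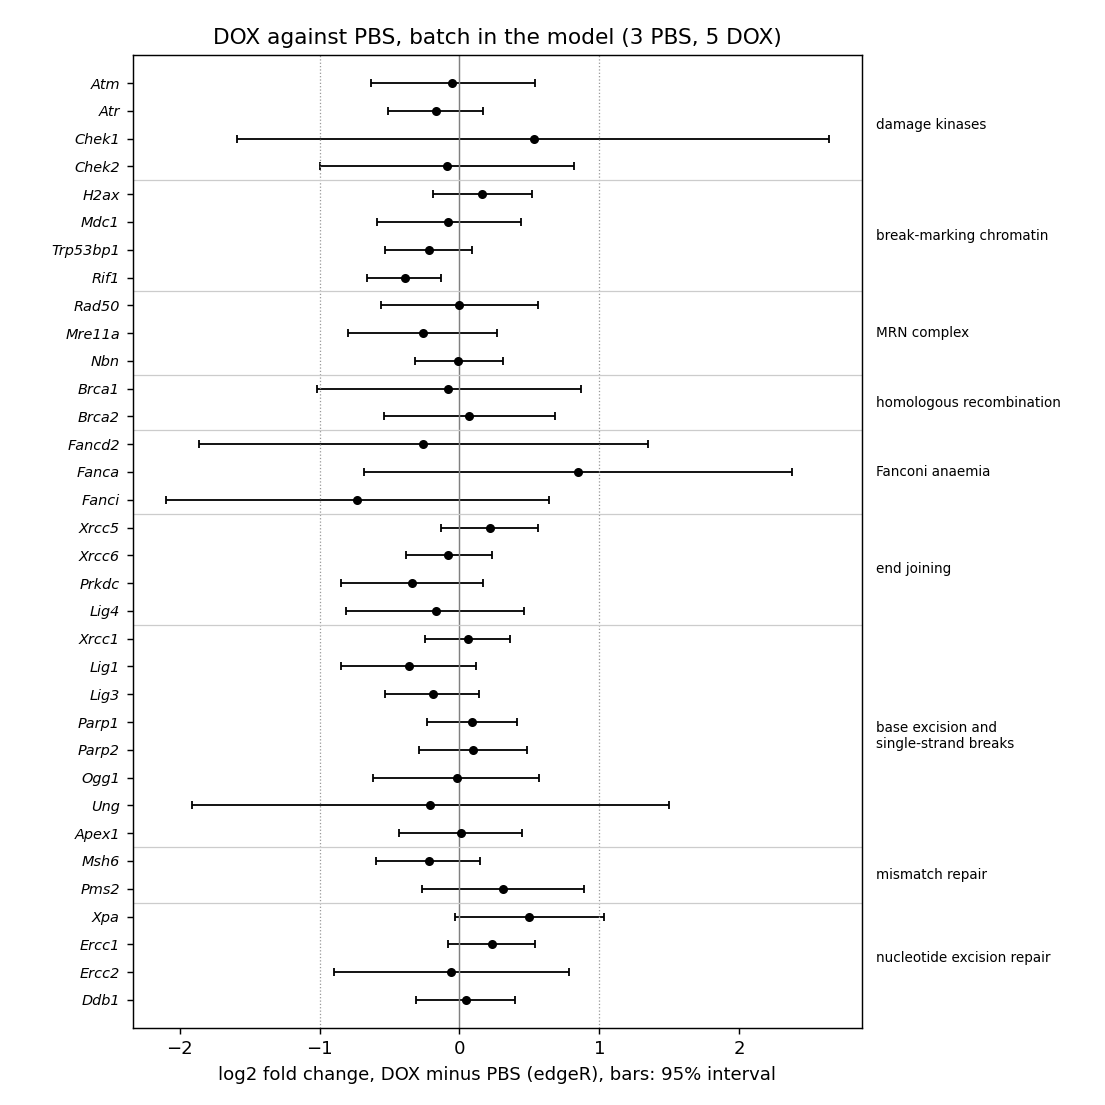
Log2 fold change of each of the 34 genes, DOX minus PBS, from edgeR with batch in the model (3 PBS, 5 DOX), with 95% intervals as bars and dotted lines at a change of 2-fold. The interval of Rif1, from -0.66 to -0.13, is the only one of the 34 that does not cross 0, and those of the Fanconi genes, Ung and Chek1 are the widest.

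Among the damage kinases no difference passed. Atm, the kinase that answers double-strand breaks, stood at 2.85, 4.47 and 5.55 CPM in PBS replicates 1 to 3. In DOX replicates 1 to 5 it stood at 3.92, 4.66, 4.36, 3.44 and 3.86 CPM, all inside the PBS range. The log2 fold change of Atm was -0.05 ± 0.26 (SE; adjusted p = 0.995 in edgeR). Atr, the kinase that answers stalled replication forks, had 11.9, 10.5 and 9.04 CPM in PBS and 10.2, 10.3, 9.06, 7.76 and 9.75 CPM in DOX. Only DOX replicate 4 lay below every PBS library, and the log2 fold change was -0.17 ± 0.15 (SE).

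The checkpoint kinases downstream of them varied more between libraries than between groups. Chek1, the effector of Atr, had 7, 43 and 26 counts in PBS and 112, 20, 9, 41 and 40 counts in DOX, or 0.131 to 1.17 and 0.222 to 2.26 CPM. The highest library, DOX replicate 1, and the lowest, PBS replicate 1, differed 17.2-fold in CPM and both belong to batch 1. Its log2 fold change of 0.53 ± 0.95 (SE) was 0.16 without DOX replicate 1, -0.41 without PBS replicate 1, 1.14 without PBS replicate 2 and 1.06 without DOX replicate 3. With DOX replicate 1 counted as PBS it was -0.71. Chek2, the effector of Atm, had 3.64, 1.04 and 1.73 CPM in PBS and 2.26, 2.28, 1.01, 1.48 and 2.56 CPM in DOX, with every DOX library but replicate 3 inside the PBS range. Its log2 fold change was -0.09 ± 0.41 (SE).

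On break-marking chromatin the lowest unadjusted p of all 34 members belonged to Rif1. The protein binds to Trp53bp1 at breaks, where the pair shields the ends from resection, and Rif1 also sets the timing of replication origins. Rif1 stood at 30.0, 25.1 and 29.4 CPM in PBS and at 25.0, 22.3, 21.3, 20.2 and 19.4 CPM in DOX. Every DOX library lay below every PBS library, by a narrow margin between DOX replicate 1 and PBS replicate 2. The PBS mean was 28.2 ± 2.64 CPM (SD, n = 3), and that of DOX 21.7 ± 2.18 CPM (SD, n = 5). The log2 fold change was -0.39 ± 0.12 (SE), a ratio of 0.761, with an unadjusted p of 0.00703 and an adjusted p of 0.995 in edgeR, so it did not pass over all genes. Across all genes tested 1.74% were lower at an unadjusted p under 0.05, and 1.19% had every DOX library below every PBS library, against 1 of 34 members each. No member was higher at an unadjusted p under 0.05, against 1.98% of all genes. The separation held with TMM factors but not with other scalings: DOX replicate 1 and PBS replicate 2 both stood at 25.1 CPM with DESeq2's size factors, and the ranges overlapped with upper quartile scaling (26.1 and 24.4 CPM). The log2 fold change of Rif1 was negative under all 20 alternatives tried, from -0.45 to -0.30, with an unadjusted p under 0.05 in 18 and an adjusted p between 0.319 and 1. Within batches the mean log2 CPM was lower in DOX in both, with differences of -0.34 in batch 1 and -0.42 in batch 2.

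The partners of Rif1 are given with it. Trp53bp1, singled out after its values were seen, had 16.8, 19.2 and 14.8 CPM in PBS and 16.1, 13.3, 14.6, 14.8 and 14.1 CPM in DOX. In DOX 4 of 5 libraries lay below every PBS library, replicate 4 by less than the rounding shown, and its log2 fold change was -0.22 ± 0.14 (SE; unadjusted p = 0.153 in edgeR), with an interval from -0.53 to 0.09. The gene shares 15.0% of its exon length with Tubgcp4 on the opposite strand. Downstream of the pair acts shieldin, whose subunits are encoded by Shld1, Shld2, Shld3 and Mad2l2. Their log2 fold changes were 0.15 ± 0.25, -0.29 ± 0.22, -0.42 ± 0.38 and -0.25 ± 0.14 (SE), and none passed.

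The mark itself and its reader are encoded by H2ax and Mdc1. H2ax, which encodes the histone variant phosphorylated around breaks, had 14.0, 16.4 and 13.6 CPM in PBS and 13.5, 18.2, 16.5, 14.3 and 19.3 CPM in DOX. The ranges overlapped, with 3 DOX libraries above every PBS library and 1 below. Its log2 fold change was 0.16 ± 0.16 (SE), with an interval from -0.19 to 0.52. For Mdc1 the PBS mean was 7.23 ± 0.426 CPM (SD, n = 3), that of DOX 6.94 ± 1.78 CPM (SD, n = 5), and the log2 fold change -0.08 ± 0.23 (SE).

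The MRN complex, which senses and trims broken ends, showed no difference that passed. Mre11a, its nuclease, had 12.8, 9.05 and 13.5 CPM in PBS and 6.26, 9.70, 11.7, 8.52 and 13.2 CPM in DOX. DOX replicates 1 and 4 lay below every PBS library, and the log2 fold change was -0.26 ± 0.24 (SE). Nbn, the subunit that recruits the ATM kinase, had 21.1, 21.1 and 23.5 CPM in PBS and 21.1, 27.0, 18.1, 22.1 and 21.6 CPM in DOX. The DOX libraries spread to both sides of the PBS values, and its log2 fold change was -0.01 ± 0.14 (SE). Rad50, the structural subunit, ran from 11.3 to 19.9 CPM in PBS and from 9.92 to 21.2 CPM in DOX, with a log2 fold change of 0.00 ± 0.25 (SE).

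In homologous recombination neither member passed, and the spread of Brca1 followed the batches. Brca1, a ubiquitin ligase subunit that favours recombination over end joining, had 124, 32 and 19 counts in PBS and 141, 58, 34, 23 and 28 counts in DOX. In CPM these were 2.33, 0.873 and 0.538 in PBS and 2.85, 1.44, 0.837, 0.531 and 0.676 in DOX, so that the 3 libraries of batch 1 lay above the 5 of batch 2. The highest values were in PBS replicate 1 and DOX replicate 1, the libraries of lowest collagen share. The parts of batch and of that share in the Brca1 values were not tested. For Brca1 the DOX against PBS log2 fold change was -0.08 ± 0.43 (SE), with an interval from -1.02 to 0.87. Brca2 had 2.29, 4.12 and 2.55 CPM in PBS and 2.69, 2.21, 2.81, 4.04 and 3.57 CPM in DOX. The ranges almost coincided, and its log2 fold change was 0.07 ± 0.27 (SE).

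The Fanconi anaemia genes, whose products unhook crosslinks between DNA strands, were among the sparsest of the list. Fanca, of the core ubiquitin ligase complex, had 17, 16 and 10 counts in PBS and 54, 24, 28, 32 and 7 counts in DOX. In 4 of 5 DOX libraries its CPM exceeded every PBS library, while DOX replicate 5 lay below all of them. The log2 fold change was 0.85 ± 0.69 (SE), with an interval from -0.68 to 2.38. Fanci, a subunit of the clamp that the complex modifies, had 51, 44 and 9 counts in PBS and 28, 18, 15, 16 and 28 counts in DOX. Every DOX library lay inside its PBS range in CPM, and its log2 fold change was -0.73 ± 0.62 (SE). Fanci shares 16.0% of its exon length with Polg on the opposite strand. Its partner Fancd2 ran from 11 to 48 counts in PBS and from 10 to 52 counts in DOX, with a value of -0.26 ± 0.72 (SE).

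End joining genes stayed within overlapping ranges. Prkdc, which encodes the catalytic subunit of DNA-dependent protein kinase, had 12.5, 8.21 and 7.17 CPM in PBS and 9.28, 6.63, 5.32, 9.24 and 6.16 CPM in DOX. PBS replicate 1 was highest and 3 DOX libraries lay below every PBS library. Its log2 fold change was -0.34 ± 0.23 (SE; unadjusted p = 0.171 in edgeR), and without PBS replicate 1 it was -0.14. Xrcc5, which encodes Ku80, had 17.7, 23.2 and 18.0 CPM in PBS and 17.1, 24.0, 26.0, 24.6 and 21.3 CPM in DOX, and a log2 fold change of 0.22 ± 0.16 (SE). Its partner Xrcc6 ran from 18.8 to 26.8 CPM in PBS and from 19.0 to 22.1 CPM in DOX, with a value of -0.08 ± 0.14 (SE), so neither Ku subunit passed. Lig4, the ligase of this pathway, had 4.77, 6.49 and 7.70 CPM in PBS and 2.43, 6.38, 6.67, 5.77 and 6.03 CPM in DOX, with DOX replicate 1 far below the other 4 and a log2 fold change of -0.17 ± 0.28 (SE).

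Base excision and single-strand break repair had 4 members higher and 4 lower, with a median log2 fold change of -0.01. Lig1 had the lowest unadjusted p of the 8, with 9.80, 6.49 and 8.24 CPM in PBS and 5.40, 6.72, 5.02, 8.06 and 6.57 CPM in DOX. DOX replicates 1 and 3 lay below every PBS library and the other 3 overlapped the PBS range. Its log2 fold change was -0.36 ± 0.22 (SE; unadjusted p = 0.128 in edgeR). Parp1, the poly(ADP-ribose) polymerase that detects strand breaks, had 25.2, 35.0 and 32.1 CPM in PBS and 24.7, 31.8, 41.0, 30.4 and 32.6 CPM in DOX. The lowest values of both groups were in PBS replicate 1 and DOX replicate 1, the libraries of lowest collagen share. The same held for Lig3, Lig4, Xrcc5 and Ddb1, while Rif1, Prkdc and Brca1 had their highest values of both groups there. The part of that share in these values was not tested. For Parp1 the log2 fold change was 0.09 ± 0.14 (SE), bounded by -0.23 and 0.41.

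The remaining 6 members of this pathway ran as follows. Log2 fold changes were 0.10 ± 0.17 (SE) for Parp2, another break sensor, and 0.06 ± 0.14 for Xrcc1, the scaffold of single-strand repair. Lig3, the ligase that Xrcc1 holds, had -0.19 ± 0.15 and overlaps Rffl on the opposite strand over 25.1% of its exon length. The glycosylase genes Ogg1, for oxidised guanine, and Ung, for uracil, had -0.02 ± 0.27 and -0.21 ± 0.77, the latter on 5 to 50 counts per library. Apex1, the endonuclease at abasic sites, had 0.01 ± 0.20, but 61.7% of its exon length lies in exons of Pip4p1 on the opposite strand, and unstranded reads of that stretch cannot be told apart.

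Mismatch repair members pointed to opposite sides. Msh6 had 16.3, 16.6 and 15.5 CPM in PBS and 10.4, 16.2, 15.8, 12.4 and 14.6 CPM in DOX. The PBS libraries were close together, and 3 DOX libraries lay below all of them, DOX replicate 1 being the lowest. The log2 fold change was -0.22 ± 0.17 (SE), with an interval from -0.60 to 0.15, and ran from -0.32 to -0.02 over the 20 alternatives. Pms2, the nuclease subunit that acts after mismatch binding, ran from 4.08 to 6.08 CPM in PBS and from 4.39 to 7.94 CPM in DOX, with a value of 0.31 ± 0.26 (SE).

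Nucleotide excision repair had 3 of 4 members higher, none of them past the threshold. Xpa, the scaffold that checks the lesion, had 4.58, 4.23 and 4.90 CPM in PBS and 8.59, 4.76, 5.29, 6.95 and 6.71 CPM in DOX. In 4 of 5 DOX libraries it lay above every PBS library, with DOX replicate 2 inside the PBS range. The log2 fold change was 0.50 ± 0.24 (SE; unadjusted p = 0.0632, adjusted p = 0.995 in edgeR). It was 0.35 without DOX replicate 1 and 0.14 with that library counted as PBS. Ercc1, a subunit of the nuclease that cuts beside the lesion, singled out after its values were seen, had 17.7, 19.9 and 18.8 CPM in PBS and 25.9, 19.2, 20.3, 23.3 and 21.5 CPM in DOX. Again all DOX libraries but replicate 2 lay above the PBS range. Its log2 fold change was 0.23 ± 0.14 (SE; unadjusted p = 0.125 in edgeR), and ran from 0.04 to 0.35 over the 20 alternatives. DOX replicate 1 held the highest value of Ercc1, as it did for Xpa. Ddb1 had 235, 350 and 358 CPM in PBS and 241, 329, 393, 282 and 331 CPM in DOX, which gave a log2 difference of 0.05 ± 0.16 (SE) with bounds of -0.31 and 0.40. Ercc2, the helicase of the same pathway, had -0.06 ± 0.38 and shares 42.7% of its exon length with other genes.

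**Figure D3:**
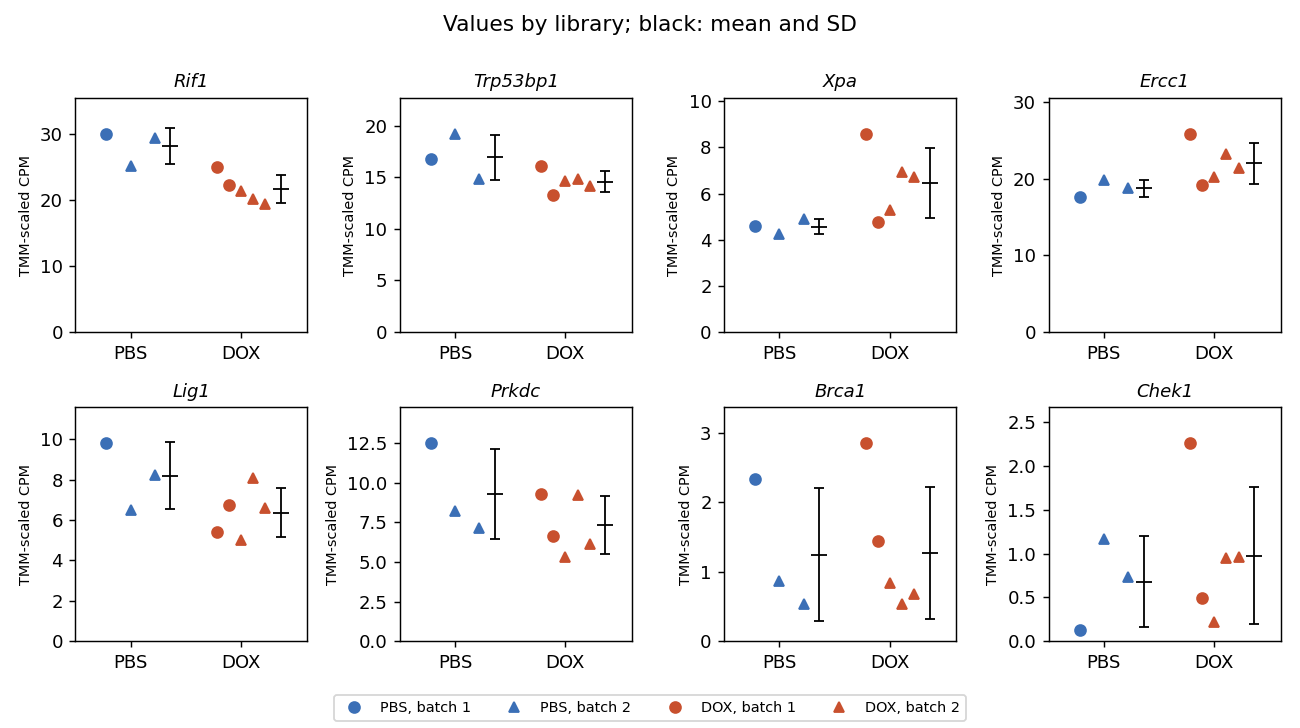
TMM-scaled CPM by library for 8 of the genes, with the group mean and SD in black at the right of each group (PBS n = 3, DOX n = 5). Rif1 is lower in each DOX library than in each PBS library, Xpa and Ercc1 are higher in 4 of 5 DOX libraries, and Brca1 is highest in the 3 libraries of batch 1.

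The difference between the groups was also compared between batches. Within batch 1 (1 PBS and 2 DOX libraries) and batch 2 (2 PBS and 3 DOX libraries), 11 members were lower in DOX in both, 9 were higher in both and 14 had opposite signs, going by mean log2 CPM. The test of the group by batch product in edgeR called 0 of 34 members and 0% of all genes, with 1 member and 11.7% of all genes at an unadjusted p under 0.05, and DESeq2 called 0 members too, against 1.89% of all genes. That member was Chek1, with differences of 2.65 in batch 1 and -0.60 in batch 2 (interaction adjusted p = 0.406 in edgeR), where batch 1 rests on 1 PBS library of 7 counts. The next by interaction p were Xrcc6 (-0.40 and 0.11, at least 669 counts per library), Atm (0.58 and -0.36, at least 149 counts) and Ung (-1.61 and 0.95, at least 5 counts), with unadjusted p of 0.0562, 0.0691 and 0.0912 in edgeR. H2ax (0.17 and 0.15), Trp53bp1 (-0.20 and -0.21), Rif1 (-0.34 and -0.42) and Xpa (0.48 and 0.46) differed by similar amounts in the 2 batches.

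**Figure D4:**
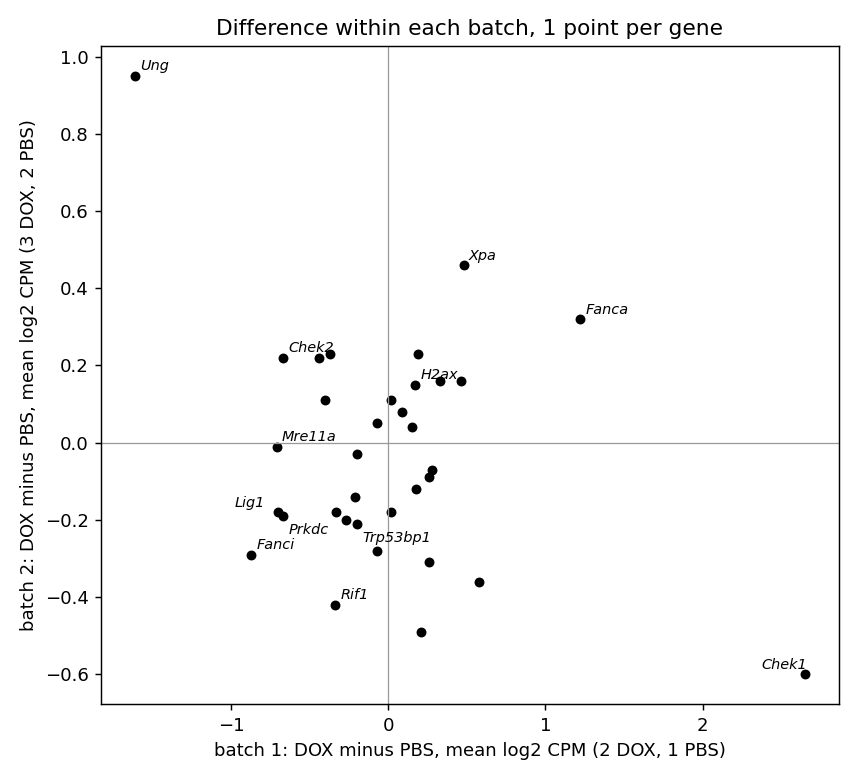
Difference in mean log2 CPM, DOX minus PBS, within batch 1 (x axis) and within batch 2 (y axis), with 1 point per gene. Rif1 lies in the lower left quadrant at -0.34 and -0.42 and Xpa in the upper right at 0.48 and 0.46, while Chek1 and Ung, of low counts, lie far out in opposite quadrants.

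Between the batches themselves Brca1 had the lowest unadjusted p of the members. In edgeR with group in the model, 0 of 34 members passed for batch 2 against batch 1, against 0.0911% of all genes, and limma-voom called 0 as well, against 0.0650% of all genes. At an unadjusted p under 0.05 edgeR listed 2 members (5.88%), Brca1 and Parp1, against 14.6% of all genes. The batch difference of Brca1 was singled out here after its values were seen. As batch 2 minus batch 1, the log2 fold change of Brca1 was -1.68 ± 0.41 (SE, with unadjusted p = 0.00226 and adjusted p = 0.166 in edgeR). DESeq2 called Brca1 (adjusted p = 0.0112), and edgeR did so without DOX replicate 2 (adjusted p = 0.0381). In these fits Brca1 was 1 of 34 members called (2.94%), against 3.29% and 6.18% of all genes. With 1 gene called, these shares cannot tell whether the members differ from all genes. Over the 16 alternatives its adjusted p ran from 0.0112 to 0.746 and its log2 fold change from -1.91 to -1.09, the smallest size being that without PBS replicate 1 and DOX replicate 1. Every batch 1 library lay above every batch 2 library for Brca1 alone of the members and for 4.38% of all genes, while the reverse order was seen in 0 members and 4.89% of all genes.

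Of 7 marker lists, the erythroid and endothelial lists separated the batches as Brca1 did. The summed erythroid list stood at 158, 110 and 39.9 CPM in the 3 libraries of batch 1 and between 3.45 and 11.2 CPM in the 5 of batch 2, with Epor and Slc4a1, 2 of its 9 genes, at 0 in some library. The endothelial list stood at 16.3, 3.66 and 13.2 CPM against 1.01 to 2.47 CPM, with Cdh5, Emcn, Flt1, Kdr and Tek, 5 of its 7 genes, at 0 in some library. Within batch 1 the erythroid list was highest in PBS replicate 1 and the endothelial list was lowest in DOX replicate 1, where Brca1 was highest. The B cell list (46.0 to 71.7 against 46.7 to 72.2 CPM), the myeloid list (7.92 to 35.9 against 1.61 to 128 CPM) and the osteoclast list (334 to 365 against 278 to 428 CPM) overlapped between batches, as did the osteoblast list. The list of dividing cells did not separate the batches, at 165 to 225 CPM against 126 to 192 CPM, nor did its marker Mki67, at 4.91 to 6.85 CPM against 3.74 to 9.65 CPM. The part of these cells in the Brca1 values was not tested. Between treatment groups, the PBS and DOX ranges of all 7 marker lists overlapped.

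The wider pathways were read from 117 further repair genes, of which 114 were tested. EdgeR called 0 of them, with 53 higher and 61 lower in DOX, a median log2 fold change of -0.01, and 4 (2 higher, 2 lower) at an unadjusted p under 0.05, where 3.71% of all genes were listed. Limma-voom and DESeq2 also called 0, each with 5 at an unadjusted p under 0.05, where 4.31% and 4.74% of all genes were listed. By pathway, 8 of 20 further recombination genes, 4 of 12 Fanconi genes, 6 of 10 end joining genes, 8 of 18 base excision genes, 2 of 5 mismatch genes, 8 of 18 nucleotide excision genes, 12 of 20 damage signalling genes and 5 of 11 translesion and direct repair genes were higher.

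The wider genes named next, from those of smallest unadjusted p in each direction, had an adjusted p of 0.995 in edgeR. Rev3l, the catalytic subunit of the bypass polymerase zeta, had 11.0, 12.9 and 10.1 CPM in PBS and 4.53, 8.86, 9.38, 8.71 and 6.23 CPM in DOX. Every DOX library lay below every PBS library, which held for Rev3l alone of the 114 wider genes and for 1.19% of all genes. Its log2 fold change was -0.58 ± 0.24 (SE). Rbbp8, which encodes the resection factor CtIP, had 6.91, 8.73 and 9.09 CPM in PBS and 13.9, 9.48, 10.4, 13.6 and 9.61 CPM in DOX. Here every DOX library lay above every PBS library, which held for Rbbp8 alone of the 114 wider genes and for 1.24% of all genes. Its log2 fold change was 0.48 ± 0.20 (SE). Both separations were read with TMM factors alone. DOX replicate 1 held the extreme DOX value of both genes: without it the log2 fold changes were -0.45 for Rev3l and 0.37 for Rbbp8, and with it counted as PBS -0.25 and 0.16. Apex2, an abasic endonuclease, had 0.46 ± 0.19, Alkbh3, which removes alkyl groups, 0.27 ± 0.13, and the end joining factor Paxx 0.37 ± 0.19. On the lower side Xrcc2, a homologous recombination gene, had -0.62 ± 0.28 and Mad2l2, which polymerase zeta shares with shieldin, -0.25 ± 0.14.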

How the data were processed

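Bulk RNA-seq of 8 sorted osteoblast libraries (3 PBS, 5 DOX) was read from a table of raw counts per gene that the authors deposited. The submitters' processing notes name STAR 2.7.9a and featureCounts 2.0.1, beside Trim Galore 0.6.6, SAMtools 1.17 and the quality tools MultiQC 1.7 and FastQC 0.11.5, and build GRCm39. For annotation and strand setting, no value was given in the sources read. Per the labels' protocols libraries were made with SMART-Seq v4 Plus, a kit that amplifies full-length cDNA by PCR and does not mark strand, and no molecular identifiers are named, so read counts are not independent molecules. The smallest gene total in the table was 10. The columns were mapped to libraries by name, and groups came from titles. Over all 28 pairs of libraries, none agreed within sampling noise (chi-square per degree of freedom of at least 24.9).

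Genes passing edgeR's filterByExpr (15373) were scaled by TMM and fitted with edgeR 4.0.16 (R 4.3.3) by quasi-likelihood, with batch and group as terms and Benjamini-Hochberg adjustment over all of them (threshold 0.05). The group by batch product and the batch term were tested in the same way. CPM are TMM-scaled and log2 CPM use a prior count of 2. Exon lengths (the union of all annotated exons of a gene) and exon overlaps came from GENCODE M21, matched for all 34 members. This is an earlier build than that of the counts, and the union can exceed any 1 transcript, so levels per kilobase are approximate. Over 10% of exon length lay in exons of other genes for 8 members: Apex1, Ercc2, Lig3, Fanci, Trp53bp1, Ogg1, Fanca and H2ax. The code was tested on simulated data. Alternatives were limma-voom (limma 3.58.1), DESeq2 1.42.0, other scalings, no filter and a filter of 1 CPM in 3 libraries, no batch term, a replicate block, batch 2 alone, the batch 1 value from the model with a group by batch product, each library left out, and DOX replicate 1 left out with PBS replicate 1 or counted as PBS.

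The members and gene lists were chosen with earlier results of these data known. Values in every library were given for the member of smallest p and of highest level per kilobase in each pathway and for H2ax, Atm, Chek1, Prkdc, Parp1 and Brca1; from the wider list the rule was the 4 smallest p in each direction, of which 1 gene is not reported here. Trp53bp1, Ercc1 and Lig4 were added after their values were seen.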

Additional observations from a re-analysis of the deposited data

Results flagged for a closer look

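Lig4 in DOX replicate 1 stood far from the other DOX libraries, at 2.43 CPM with the nearest other library at 5.77 CPM. It was the only 1 of the 34 members whose extreme DOX library was separated from the rest by more than Dixon's 95% critical value of 0.71 for 5 samples, and chance flags about 1 in 20 groups. This is the library whose treatment tag differs from its title, and with PBS replicate 1 it is 1 of the 2 libraries of lowest collagen share. PBS replicate 1 was the lowest PBS library for Lig4, at 4.77 CPM against 6.49 and 7.70 CPM. The part of either in the value was not tested. Groups of 3 were not tested in this way, so the PBS libraries were left out.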

How the results depend on the processing

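In the comparison of DOX with PBS, 0 members and 0 genes of the wider list were called under all 20 alternatives; over all genes DESeq2 called 15 and each other alternative 0. The number of members higher in DOX ran from 12 to 19 and their median log2 fold change from -0.08 to 0.00. Of 676 values of single members under the alternatives, 647 moved by less than 1 SD between replicates and 29 by more; 16 members kept their sign throughout and 18 did not. For batch 2 against batch 1 the count of genes called depended on the libraries: it was 14 in edgeR, 506 with DESeq2, 5 with DOX replicate 1 counted as PBS, 0 without PBS replicate 1 and DOX replicate 1 together, and 0 (without PBS replicate 1) to 938 (without DOX replicate 2) with single libraries left out. Members called there numbered 1 with DESeq2 and 0 to 1 with single libraries left out, in each case Brca1. The interaction called 0 genes in edgeR, 291 with DESeq2 and 0 to 58 with single libraries left out (10 without DOX replicate 1, 58 without DOX replicate 2), and 0 members throughout; it could not be fitted without PBS replicate 1. The causes were not tested. With the replicate block in place of the batch term, 0 genes and 0 members were called, 16 members were higher and their median was -0.03, while Rif1 had -0.30 with an unadjusted p of 0.0637 in edgeR. Deviations of same-numbered PBS and DOX libraries correlated at 0.25, -0.05 and 0.24 across genes, and not every library correlated best with its own number, so the numbers were not read as pairs. The stricter filter left 30 members. Members of few counts, such as Ung at 5 to 50 per library, had the widest intervals.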
